A study of Arabidopsis thaliana with 12 samples.

Results

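The dependence of the transcript response to hydrogen peroxide on genotype was measured in Arabidopsis seedlings. For each probe set the quantity described is the interaction, the log2 change after H2O2 in Zat12 seedlings minus the log2 change after H2O2 in wildtype seedlings. A positive interaction means a higher ratio of treated to untreated signal in Zat12 than in wildtype, and a negative one a lower ratio. The members were the 22634 of 22810 probe sets that were neither labelling controls nor annotated to an organellar genome. The rule left out 64 controls, 77 plastid and 35 mitochondrial probe sets, and used no measured value. Probe sets without annotation, 8730 of the members, could not be checked for their genome and were kept.

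Each of 4 groups held 3 Affymetrix ATH1 arrays of total RNA from whole seedlings. The wildtype was Columbia. The transgenic seedlings, in the same background, carried the zinc finger protein Zat12 driven by the 35S promoter of cauliflower mosaic virus, which is active in most tissues rather than only in cells that normally make the protein. The labels do not say how many transgenic lines were used. Treated groups of both genotypes received 20 mM hydrogen peroxide for 1 hour, and the other 2 groups were not treated. All seedlings were 5 days old, had grown in liquid culture and were collected at the same time. The labels do not say whether replicates were separate cultures, so p-values rest on the spread among arrays, part or all of which may be technical. The annotation used here names no probe set for ZAT12. An unannotated probe set may report the transgene, and none was assigned to it here.

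Hydrogen peroxide is a reactive oxygen species that plant cells make under stress and at wounds, and that also acts as a signal. Seedlings given it from outside induce chaperones that hold damaged proteins, enzymes that conjugate and export toxic products, and transcription factors of the stress response. ZAT12 is one of those factors, a C2H2 zinc finger protein with a repression motif, whose own transcript is induced by oxidative stress, cold and wounding. An interaction asks a narrower question than either response, namely whether seedlings that already make Zat12 respond to H2O2 by a different factor than the wildtype.

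Measures other than nuclear transcripts also differed between groups. A control probe set for 25S ribosomal RNA read 32.9 to 125 on the untreated wildtype arrays and 96.3 to 295 on the other 9 arrays. The ratio of the 3′ to the 5′ actin control, a sign of RNA quality, was 3.85 to 9.5 on untreated wildtype arrays and 3.96 to 6.02 on the others. Plastid probe sets, centred over the arrays, had a median log2 signal of −0.80 ± 0.37 (SD, n = 3) in untreated wildtype and 0.0923 to 0.509 in the other 3 groups. Untreated wildtype enters every interaction value, and the part of these differences in the results was not tested. On the array of untreated Zat12 replicate 2, 6408 cells were empty (28.1%), so that 3836 of the tested members rest on 11 values.

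Of the members, 13578 had a mean signal above 28.1 and were tested, and 9056 were not. Of those tested, 7300 were annotated to 1 gene, 269 to several and 6009 to none. Called here means a Benjamini-Hochberg adjusted p below 0.05 in limma, a linear model fitted across all probe sets. No probe set was called with a higher response in Zat12, which is 0.0% of those tested. A single probe set, 247655_at, was called with a lower response in Zat12, 0.00736% of those tested. At an unadjusted p below 0.05, 448 probe sets were higher (3.3%) and 468 lower (3.45%), together 6.75%. The second smallest adjusted p was 0.0589, and 6 probe sets lay below 0.1, 4 of them higher in Zat12. The adjustment ran over organellar probe sets as well. With those kept out of the fit, the adjusted p of 247655_at was 0.00283, and Hop3 and 259391_s_at, next to it in the first fit at 0.0589 and 0.0592, had 0.329. Without wildtype replicate 3, 4 probe sets were called higher and 13 lower, and without any other single array 0 to 2 higher and 1 to 3 lower.

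The responses themselves were broad in both genotypes. In wildtype 1259 members rose (9.27%) and 1689 fell (12.4%) after H2O2. In Zat12 1114 rose (8.2%) and 1243 fell (9.15%). Either change was called for 21.7% of the members in wildtype and 17.4% in Zat12. The falls dropped to 1077 in wildtype without wildtype+H2O2 replicate 1, to 820 in wildtype with the 25S signal as a covariate, and to 825 in Zat12 without Zat12 replicate 1. The interaction had a median of −0.01 on the log2 scale, with quartiles of −0.18 and 0.17. Its percentiles at 1% and 99% were −0.77 and 0.72. The 95% interval of the interaction lay within 1 log2 unit of 0, a 2-fold difference in response, for 11710 members (86.2%). For the remaining members these arrays do not bound the difference to that size. The median half-width of the interval was 0.47, and the standard error ran from 0.154 at its 5% point to 0.373 at its 95% point, so the size that could be told from 0 varied between probe sets. Values of at least 1 were seen for 21 members and of at most −1 for 39.

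**Figure D1:**
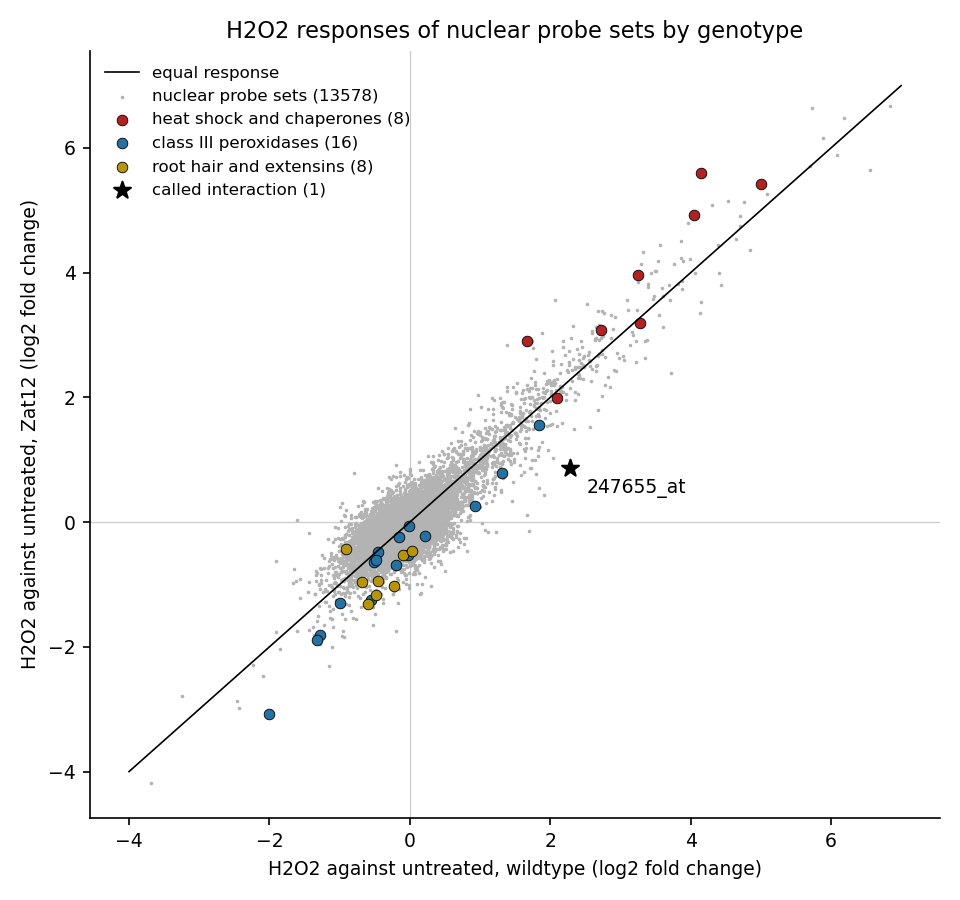
Log2 change after H2O2 in Zat12 (vertical) against the log2 change in wildtype (horizontal) for the 13578 tested nuclear probe sets, with 3 gene lists coloured. The line marks equal responses. All 8 heat shock and chaperone genes rose in both genotypes, all 16 class III peroxidases lie below the line, and 247655_at, the single called interaction, lies below it at 2.28 and 0.87.

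Strongly responding transcripts were examined by the mean of both responses, a grouping made after the values were known. The 552 members with a called mean rise of at least 1 log2 unit had a median response of 1.65 in wildtype and 1.71 in Zat12. Their median interaction was 0.05, with quartiles of −0.15 and 0.29, and 57.6% of the values were positive against 48.5% over all tested members. At an unadjusted p below 0.05, 63 of them were higher (11.4%) and 40 lower (7.25%), against 3.3% and 3.45% over all tested members and 2.8% and 3.19% of the 11557 with a mean response within 0.5 of 0. On the treated wildtype arrays the median rise of these transcripts above the untreated mean was 1.75, 1.64 and 1.598, and on the treated Zat12 arrays 1.74, 1.68 and 1.74. The arrays of the genotypes overlapped in this measure. The 97 members with a called mean fall of at least 1 log2 unit had medians of −1.18 in wildtype and −1.19 in Zat12, and a median interaction of −0.10. Of these, 58 were negative and 39 positive, and at an unadjusted p below 0.05 8 were lower (8.25%) and 2 higher (2.06%).

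Probe sets with an unadjusted p below 0.05 were of several kinds. Among the 468 with a negative interaction, 286 had an increase in wildtype and a decrease in Zat12, 83 an increase in both and 99 a decrease in both. Among the 448 with a positive interaction, 220 had a decrease in wildtype and an increase in Zat12, 109 an increase in both and 119 a decrease in both. These counts sort the signs of fitted values, most of which were not called.

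The called probe set, 247655_at, had no gene in the annotation used here. Whether it reports ZAT12 itself, and so the transgene, could not be told from that annotation. The signal of 247655_at was 49.5, 52.0 and 46.2 on the untreated wildtype arrays and 204, 286 and 267 on the treated ones. In Zat12 it was 536.5, 556 and 589 without treatment and 983, 1017 and 1080 with it. No array of one group overlapped with another group, and untreated Zat12 already lay above treated wildtype. The log2 change after H2O2 was 2.28 in wildtype and 0.87 in Zat12, a 4.84-fold and a 1.83-fold rise, both called. The interaction was −1.41 (95% interval −1.77 to −1.04, limma adjusted p = 0.00145). Counted as added signal instead of ratio, the rise was larger in Zat12, 466 ± 32.3 (SE) against 203 ± 24.9, a difference of 263 ± 40.8. The direction of this interaction therefore holds for ratios and turns for differences of signal. Between genotypes the log2 difference was 3.43 without treatment and 2.03 under H2O2.

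Heat shock proteins and their helpers keep damaged proteins from clumping and refold them. Of 27 listed genes 9 had a named probe set and 8 were tested. Like the other lists, this one was chosen with earlier results of these data known, so its counts describe and do not test. All 8 rose after H2O2 in wildtype and all 8 in Zat12, against 9.27% and 8.2% of all tested members, with median log2 changes of 3.27 and 3.58. Their interaction was positive for 6 and negative for 2, with a median of 0.57 against −0.01 over all tested members. None of the 8 interactions was called, and 4 had an unadjusted p below 0.05 with a positive value, against 3.3% of all tested members.

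Hop3 (AT4G12400), a co-chaperone that links Hsp70 with Hsp90, came closest to a call. Its signal was 25.7, 25.02 and 32.9 in untreated wildtype and 99.2, 95.9 and 89.0 after H2O2. In Zat12 it was 25.2, 23.8 and 16.7 without treatment and 192, 153 and 203 with it. The untreated groups overlapped, while every treated Zat12 array lay above every treated wildtype array. The log2 change was 1.67 in wildtype and 2.91 in Zat12, an interaction of 1.24 (95% interval 0.73 to 1.74, limma adjusted p = 0.0589). The adjusted p was 0.0432 with arrays centred on the median, 0.0306 with 4 times the offset, 0.037 with array weights and 0.0478 over probe sets with all 12 values. Over all alternatives it ran from 0.0306 to 0.329, the latter with organellar probe sets kept out of the fit and of the adjustment.

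AT5G51440, a small heat shock protein of mitochondria, had the largest positive value of the list. Its signal was 3.95, 10.8 and 17.8 in untreated wildtype and 232, 202 and 226 after treatment. The Zat12 arrays gave 3.54, 7.48 and 2.47 without treatment and 325, 317 and 400 with it. The treated groups did not overlap, and the untreated signals lay near the offset of 3 that was added before taking logs. Its interaction was 1.45 (95% interval 0.56 to 2.34, limma adjusted p = 0.365), and 1.06 with 4 times the offset. Without wildtype replicate 1 the value was 1.88, with an adjusted p of 0.0424 in limma, and over all alternatives the adjusted p ran up to 0.836.

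The cytosolic small heat shock protein AT2G29500 stood at 391, 338 and 373 in treated wildtype and at 714, 501 and 824 in treated Zat12. Its untreated groups overlapped, at 15.4 to 26.5 in wildtype and 14.3 to 26.7 in Zat12. The interaction was 0.89 (95% interval 0.26 to 1.52, limma adjusted p = 0.491). AT5G48570, a peptidyl-prolyl isomerase of the heat response, had an interaction of 0.72, with an interval of 0.01 to 1.42. In contrast, AT5G37670 and ATHSP22.0, both small heat shock proteins, had interactions of −0.10 and −0.09. Their intervals were −0.55 to 0.36 and −0.77 to 0.58. AT1G54050, a small heat shock protein outside the list that was picked for its low p, had an interaction of 0.83 (0.38 to 1.28).

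**Figure D2:**
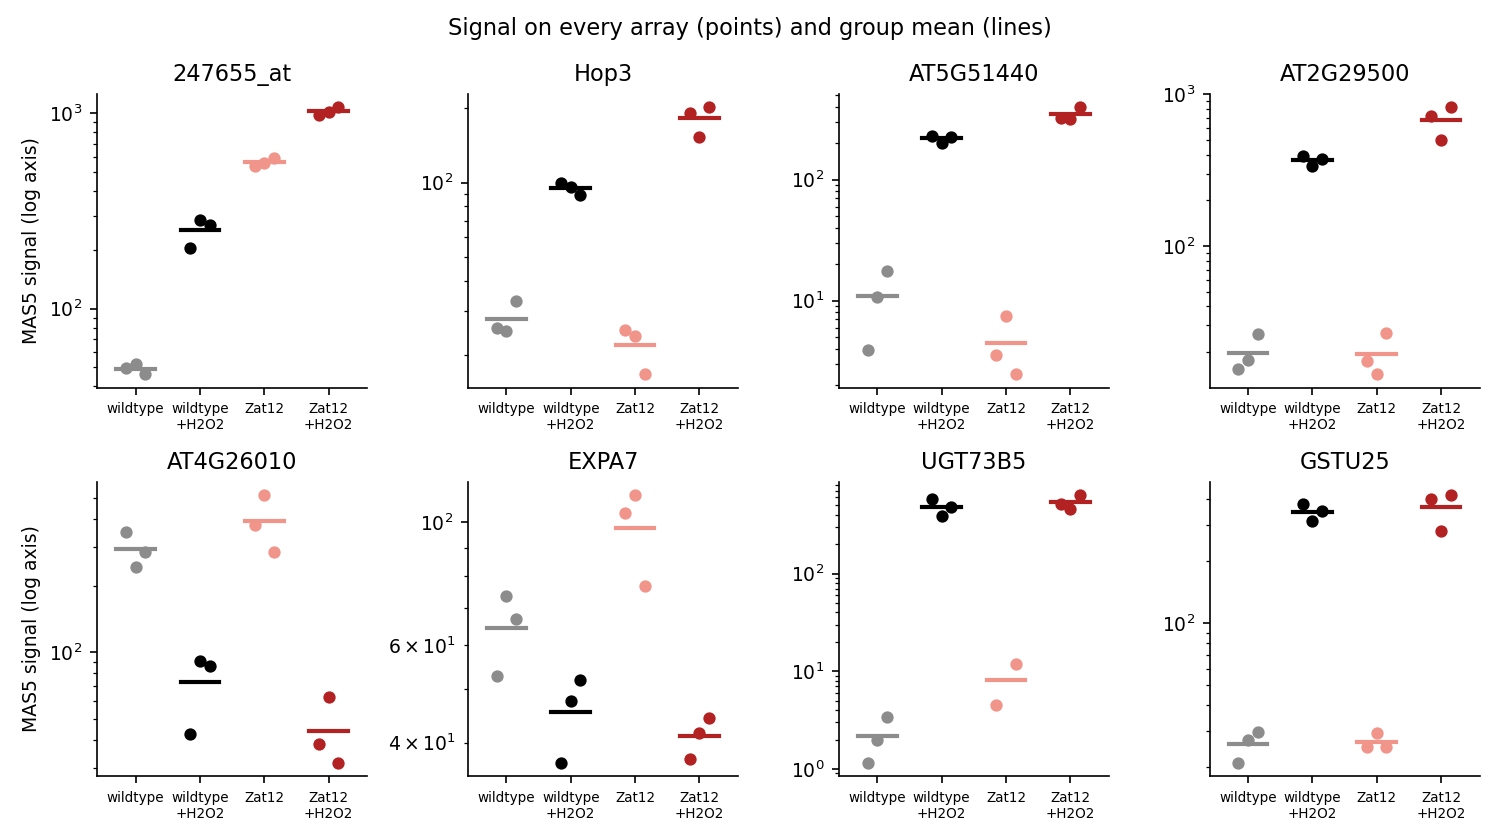
MAS5 signal on each array (points, log axis with its own range per panel) and group mean (lines) for 8 probe sets, with 3 arrays per group and 2 in untreated Zat12 for UGT73B5. Treated Zat12 lies above treated wildtype for Hop3, AT5G51440 and AT2G29500, while GSTU25 reaches like levels in both genotypes.

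Among regulators, STZ, a zinc finger repressor related to ZAT12, rose in both genotypes, by 4.53 in wildtype and 5.15 in Zat12 on the log2 scale. Treated wildtype stood at 1239, 1309 and 1192 and treated Zat12 at 1484, 1481 and 1338, without overlap. Its untreated signals spread from 33.1 to 92.8 in wildtype and from 26.5 to 54.4 in Zat12. The interaction was 0.62 with an interval of −0.16 to 1.41 (limma adjusted p = 0.751). The value was 0.21 without wildtype replicate 3, 0.40 without Zat12 replicate 1 and 1.23 with the 25S signal as a covariate. AT2G28200, the other tested zinc finger gene, fell in both genotypes, with an interaction of 0.21.

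The 3 tested genes of the WRKY list, factors of defence and senescence, rose in both genotypes. Of all tested members 9.27% rose in wildtype and 8.2% in Zat12. The interactions were −0.46 for WRKY6, −0.13 for WRKY53 and 0.27 for WRKY22, and each interval held 0. The interval of WRKY6 was −0.98 to 0.05. Over the 6 tested members of the WRKY family the median interaction was −0.07.

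Calmodulin-like proteins bind calcium, another signal of stressed cells. All 3 tested calcium sensors had a positive interaction, as did 48.5% of all tested members. The median of the 3 was 0.43, and none was called. CML42 stood at 110, 113 and 119 in untreated wildtype and at 121, 108.5 and 120.0 in untreated Zat12. After treatment it stood at 373, 374 and 366 in wildtype and at 495, 505 and 652 in Zat12. The untreated groups overlapped and the treated groups did not, and the interaction was 0.53 (95% interval 0.18 to 0.87, limma adjusted p = 0.412). CML38 and CML41 had 0.43 and 0.31, with intervals that held 0. Over the 5 tested members of the CML family the median was 0.31, and it was −0.04 when the model held the 25S signal as a covariate.

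The U-box ubiquitin ligases, which mark proteins for removal and damp immune signalling, had no common direction. PUB24 rose by 1.52 in wildtype and 2.24 in Zat12, an interaction of 0.72 (95% interval 0.18 to 1.26, limma adjusted p = 0.56). The corresponding values of PUB23 and PUB22, both called as risen in each genotype, were 0.30 and −0.14. The median of the 4 tested genes of this list was 0.08, and that of the 7 in the wider PUB family was −0.08.

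**Figure D3:**
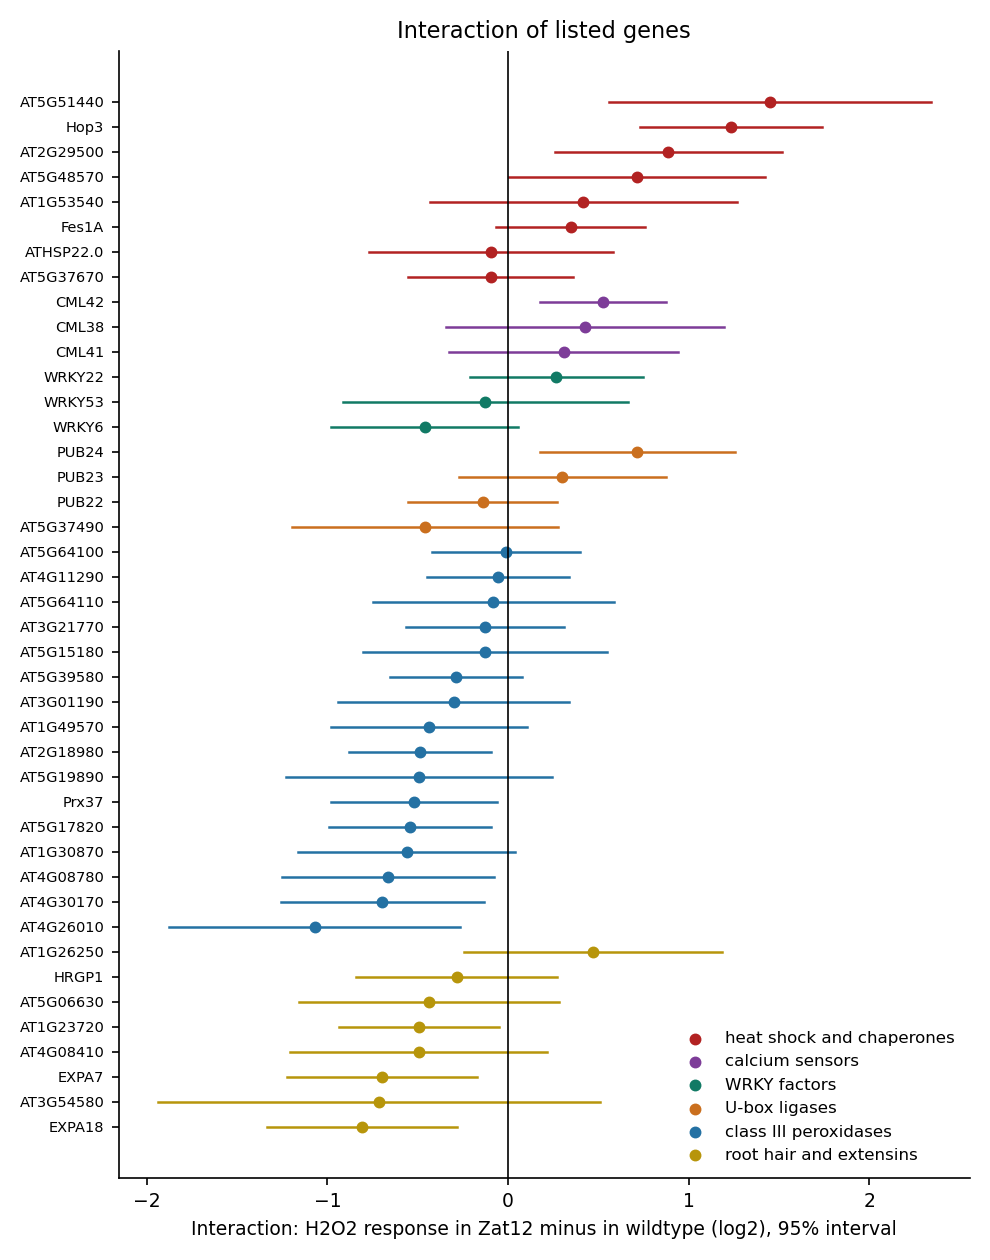
Interaction (points) with its 95% interval (lines) for the tested genes of 6 lists, on the log2 scale, where 0 means equal responses. No interval shown belongs to a called interaction. All 16 peroxidases lie at or below −0.01, while heat shock genes range from −0.10 to 1.45.

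Of the 7 tested detoxification genes 5 had a negative and 2 a positive interaction, with a median of −0.14. Over all tested members 48.5% of the interactions were positive. GSTU25, a tau class glutathione transferase, stood at 21.0, 27.2 and 29.5 in untreated wildtype and 24.99, 29.4 and 25.01 in untreated Zat12. After H2O2 it stood at 381.5, 314 and 351 in wildtype and 400.3, 281 and 419 in Zat12. Both pairs of groups overlapped. The rise was 3.61 and 3.63, and the interval of the interaction, −0.46 to 0.49, bounds the difference between the genotypes. AER, an alkenal reductase, had −0.14 (−0.65 to 0.37). Outside this list, APS3, an ATP sulfurylase, had −0.14 (−0.59 to 0.32). Over the 9 tested glutathione transferases the median was 0.02. AT2G04050, a MATE type export carrier, had −1.05, with an interval of −2.37 to 0.28. Its signal was 3.68 to 21.5 in untreated wildtype and 48.0 to 71.2 in untreated Zat12, and its treated groups did not overlap either.

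UDP-glycosyltransferases attach sugars to hormones, defence compounds and foreign chemicals. Of 51 named family members 31 were tested. In wildtype 7 rose and 1 fell, and in Zat12 7 rose and 5 fell. Over all tested members 9.27% rose and 12.4% fell in wildtype, and 8.2% rose and 9.15% fell in Zat12. The interaction was negative for 24 and positive for 7, with a median of −0.23, and the split over all tested members was 6997 negative and 6581 positive. None was called, and 6 had an unadjusted p below 0.05, all negative, against 3.45% of all tested members in that direction.

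UGT72E2, which glycosylates monolignols, had 69.96, 67.7 and 72.7 in untreated wildtype and 84.5, 101 and 82.7 after H2O2. In Zat12 it had 108.5 and 103.5 on the 2 arrays with a value, and 81.6, 85.5 and 62.7 after treatment. The interaction was −0.80 (95% interval −1.24 to −0.36, limma adjusted p = 0.272). The changes themselves were 0.33 in wildtype, not called, and −0.47 in Zat12, called at an adjusted p of 0.0498. UGT71C4 had −0.60, from a change of 0.16 in wildtype that was not called and a fall by 0.44 in Zat12.

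UGT73B5 rose by 6.56 in wildtype and 5.65 in Zat12 on the log2 scale, an interaction of −0.91 (95% interval −1.65 to −0.17, limma adjusted p = 0.623). Its untreated signals were 1.16, 1.98 and 3.37 in wildtype and 4.49 and 12.0 in Zat12. Treated arrays overlapped, at 388 to 584 in wildtype and 455 to 631 in Zat12. With untreated signals at the offset the value moved with it, to −0.35 at 4 times the offset and −1.74 without an offset. It was −0.41 without Zat12 replicate 3 and −1.41 without Zat12 replicate 1, each of which leaves a single untreated Zat12 value.

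Class III peroxidases are secreted enzymes that use H2O2 to cross-link or loosen the cell wall, many of them in roots. Of 29 listed genes 21 had a named probe set and 16 were tested. In wildtype 3 rose and 7 fell, and in Zat12 2 rose and 8 fell, with median log2 changes of −0.33 and −0.57. Falls were called for 12.4% of all tested members in wildtype and 9.15% in Zat12. All 16 interactions were negative, as were 6997 of the 13578 over all tested members. Their median was −0.46, and none was called. At an unadjusted p below 0.05 there were 6, against 3.45% of all tested members.

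AT4G26010 had the most negative value. It stood at 349, 243 and 284 in untreated wildtype and at 42.7, 90.8 and 86.2 after H2O2. In Zat12 it stood at 375, 513 and 284.5 without treatment and at 38.2, 62.5 and 31.6 with it. Both pairs of groups overlapped. It fell by 2.01 in wildtype and by 3.08 in Zat12, an interaction of −1.07 (95% interval −1.88 to −0.26, limma adjusted p = 0.56). AT4G30170 had −0.69 and AT1G30870 −0.56, both from a fall in each genotype. The negative sign also appeared where the transcript rose. AT4G08780 rose by 0.93 in wildtype and changed by 0.26 in Zat12, not called, and Prx37 rose by 1.31 and 0.79.

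Expansins and extensins build the wall of growing root hairs. Of 32 listed genes 9 had a named probe set and 8 were tested. In wildtype 3 fell and in Zat12 5 fell, with medians of −0.46 and −0.95, against falls of 12.4% and 9.15% of all tested members. The interaction was negative for 7 of 8, against 6997 of 13578 over all tested members. The probe sets of AT5G06630, HRGP1, AT4G08410 and AT1G23720 carry the suffix _x_at, a platform mark for probes that may match further sequences. Their values may share signal, so the 8 may not be separate measurements, nor the parts of the summed signal given below. The median interaction of the list was −0.49, and −0.76 without Zat12 replicate 3. EXPA18, an expansin of root hairs, stood at 71.0, 78.1 and 83.7 in untreated wildtype and 71.0, 67.2 and 60.2 after H2O2. In Zat12 it stood at 94.4, 128 and 83.9 without treatment and at 52.0, 57.6 and 35.9 with it. Untreated Zat12 lay above untreated wildtype on every array, and treated Zat12 below treated wildtype. The interaction was −0.81 (95% interval −1.34 to −0.28, limma adjusted p = 0.4). It was −0.48 when the model held the 25S signal as a covariate. EXPA7, its close relative, had −0.70 (−1.22 to −0.17), with a change of −0.48 in wildtype that was not called and a fall by 1.18 in Zat12. AT1G26250, an extensin-like gene, ran the other way at 0.47, with an interval of −0.24 to 1.18.

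Root tip and jacalin lectin genes followed with a median interaction of −0.33 over 7 tested genes, 6 of them negative. Over all tested members 6997 of 13578 were negative. The median of the list was −0.57 without wildtype+H2O2 replicate 1 and −0.19 without Zat12+H2O2 replicate 3. In wildtype 4 of the list fell and in Zat12 all 7 fell, against the same 12.4% and 9.15%. AT1G52070, a jacalin lectin gene, had −0.59 (95% interval −1.12 to −0.05, limma adjusted p = 0.658). AT5G54370, a gene of the root cap, had −1.16, with an interval of −2.45 to 0.13. Summed signals took in the named probe sets with a value on all 12 arrays, tested or not. For the root hair list these were 8 of 9, of which 7 were tested. The summed signal of that list was 676 to 941 in untreated wildtype and 713 to 945 in untreated Zat12. After H2O2 it was 504 to 576 in wildtype and 395 to 467 in Zat12, so that the treated groups did not overlap. For the root tip and jacalin list the sum took in 5 of 8 probe sets, 4 of them tested, and left out AT5G54370. This summed signal overlapped between the genotypes in both states. It was 5326 to 5717 in wildtype and 5344 to 5730 in Zat12 without treatment, and 3857 to 4724 and 3880 to 4486 after H2O2. In whole seedlings fewer root cells and less RNA per root cell cannot be told apart. The summed signal of 5 photosynthesis genes, a marker of green tissue, overlapped between all 4 groups, from 15920 to 19160. No seed storage gene had a named probe set.

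**Figure D4:**
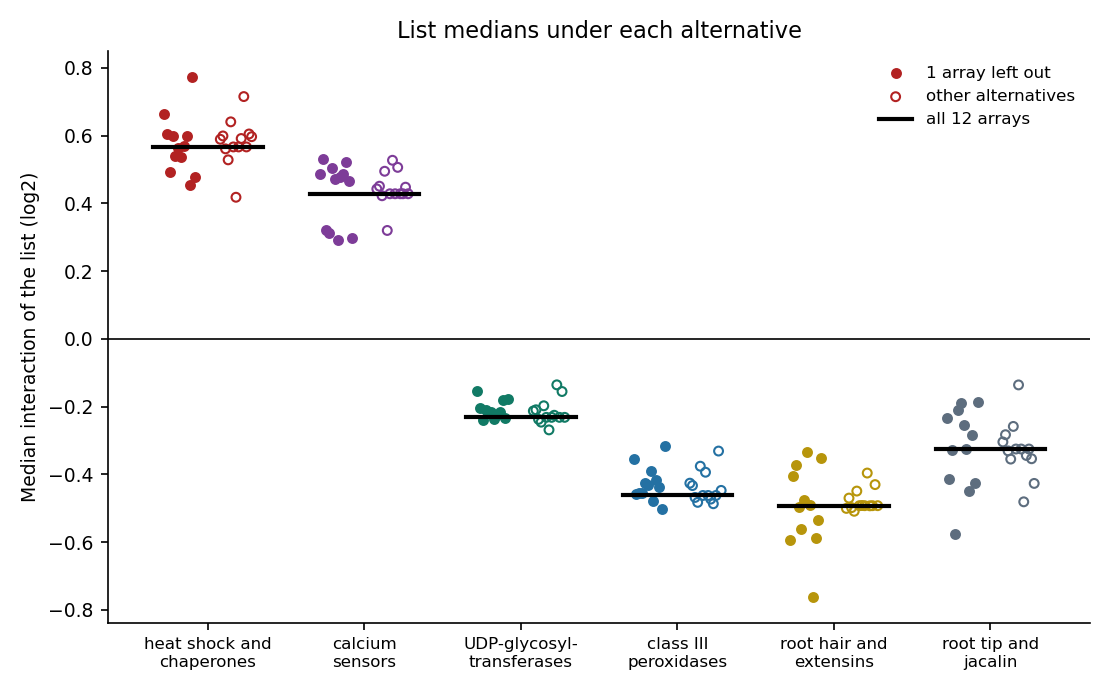
Median interaction of 6 lists (vertical, log2) with all 12 arrays (black lines), with 1 array left out in turn (filled points) and under the other alternatives (open points). The medians of the heat shock and calcium sensor lists stayed above 0 and those of the other 4 lists below 0 in each fit drawn. These fits share most or all of their arrays. Among lists not drawn, medians changed sign with 1 array left out for mitochondrial stress genes (−0.04 to 0.26) and U-box ligases (−0.08 to 0.22). The same held for the WRKY list (−0.25 to 0.12), antioxidant enzymes (−0.15 to 0.005) and berberine bridge enzyme-like oxidases (−0.02 to 0.25). It also held for the WRKY (−0.17 to 0.06), glutathione transferase (−0.06 to 0.03) and PUB (−0.11 to 0.12) families. The single genes GI (−0.37 to 0.33) and APS3 (−0.33 to 0.05) changed sign too.

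Several stress lists had medians near that of all members. The 6 tested antioxidant enzymes had a median of −0.08. CCS, the copper chaperone of superoxide dismutase, had 0.07 (−0.32 to 0.45), and the stromal ascorbate peroxidase gene SAPX had −0.61 (−1.22 to −0.01, limma adjusted p = 0.692). The 3 berberine bridge enzyme-like oxidases had a median of 0.04. One of them, AT1G26380, rose by 5.89 in wildtype and 6.17 in Zat12, with an interval of the interaction of −0.45 to 0.99. The 4 mitochondrial stress genes, which share AT5G51440 with the heat shock list, had a median of 0.12, and the 5 photosynthesis genes −0.04. The 8 tested cytochrome P450 genes had 0.13.

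The remaining small lists had medians of either sign. The 3 cold response genes had 0.30, led by the dehydrin LTI30 at 0.53 (95% interval 0.15 to 0.92, limma adjusted p = 0.502). LTI30 fell by 0.69 in wildtype, and its change in Zat12 was −0.16, not called. The 5 late embryogenesis abundant genes, protectants of drying cells, all had positive values, as did 48.5% of all tested members. The median of the 5 was 0.37, with no call in either genotype. That median was 0.09 without wildtype replicate 2, 0.12 without wildtype+H2O2 replicate 1, where LEA18 turned to −0.05, and 0.61 without wildtype+H2O2 replicate 2. It was 0.10 with array weights. The 3 flavonoid genes had −0.40. Single genes stood for the clock (GI, 0.02) and the reference list (AT4G34270, 0.20), and the 2 auxin genes had a median of −0.14. Of the 7 tested probe sets matched by a SWEET symbol, which include SWEETIE, a gene outside the sugar transporter family, the median was 0.14.

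The annotated probe sets with the smallest unadjusted p were listed after the values were seen, 8 in each direction. Besides Hop3 the positive ones included AT4G38090 at 0.87, AT5G10695 at 1.15 and AT4G17250 at 1.46. AT5G10695 stood at 239, 209 and 234 in treated wildtype and at 392, 344 and 499 in treated Zat12, while its untreated groups overlapped. AT4G17250 differed instead before treatment. It stood at 21.7, 33.6 and 27.1 in untreated wildtype against 9.17, 12.2 and 4.92 in untreated Zat12, and the treated groups overlapped.

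The negative ones included AT1G12810 at −0.78, AT1G57770 at −0.88 and AT1G75460 at −0.64. AT1G12810 rose by 0.57 in wildtype, and in Zat12 it changed by −0.22, not called. Its untreated signal was 86.6, 95.4 and 99.9 in wildtype and 145, 143.5 and 141 in Zat12, and its treated signal was 137 to 147 and 111 to 131. The genotypes were apart before treatment, with treated wildtype at the level of untreated Zat12. AT1G75460 likewise stood at 340 to 394 in untreated wildtype and at 488 to 530 in untreated Zat12, and its treated groups overlapped.

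Unannotated probe sets close to a call in the first fit included 3 more. The signal of 258336_at was 80.3, 122 and 119 in treated wildtype and 263, 315 and 284 in treated Zat12, with untreated groups that overlapped between 13.5 and 31.5. Its interaction was 1.50 (95% interval 0.84 to 2.16, limma adjusted p = 0.0935). For 259391_s_at the signal fell in wildtype from 263, 266 and 251 to 115, 128 and 135. In Zat12 it was 184.5 and 153 on the 2 arrays with a value, and 143, 157 and 174 after treatment, an interaction of 0.94 (limma adjusted p = 0.0592). For 246775_at the interaction was −1.29 (limma adjusted p = 0.101), from 0.51 in wildtype, not called, and a fall by 0.78 in Zat12. With organellar probe sets kept out of the fit, the limma adjusted p was 0.33 for 258336_at, 0.329 for 259391_s_at and 0.33 for 246775_at.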

How the data were processed

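The authors deposited a linear intensity for each probe set on each array, a MAS5 signal per the submitters' processing notes; the MAS5 version was not given in the sources used here. Each deposited array had the same trimmed mean, 100.01 or 100.1, which hides any change common to most transcripts. Genes were named from the platform annotation, updated through RefSeq (assembly TAIR10.1), which held 13367 of 13421 genes.

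From these values log2(signal + 3) was computed, and probe sets were tested above the 40th percentile of the mean. limma 3.58.1 in R 4.3.3 fitted the 4 groups, 3 arrays each, with a trend of variance on mean signal. Its contrasts were the interaction and both H2O2 responses, with p-values adjusted over 13647 probe sets, organellar ones included. Fold changes on this scale understate changes at low signal. Empty cells stayed empty. Code was tested on simulated data. Members and lists were chosen with earlier results of these data known. The text names up to 4 members per list with the largest interaction, and further ones to show a contrast. As no annotated gene was called, the 8 with the lowest p in each direction were listed after their values were seen. The lists for NAC, ERF, jasmonate, seed storage, glucosinolate and iron and copper genes had no tested member.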

Additional observations from a re-analysis of the deposited data

Results flagged for a closer look

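The H2O2 response of 247655_at differed between the genotypes in a test of the difference itself, with an interaction of −1.41 on the log2 scale. Its direction turned for differences of signal. This probe set had no gene in the annotation used here, and whether it reports the transgene could not be told from that annotation. Of the probe sets left out of the counts, 61 of the plastid genome passed the filter on signal. Their median interaction was −1.49, and 14 of them were called, each with a lower response in Zat12. None of the 8 tested mitochondrial probe sets was called, and 1 had an unadjusted p below 0.05 in limma.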

How the results depend on the processing

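The interaction of 247655_at was negative and called in every log2 alternative run, from −1.24 with 4 times the offset to −1.55 without wildtype+H2O2 replicate 1; on the linear scale it was 263. The count of higher interactions, 0, became 2 with arrays centred on the median, 2 with 4 times the offset, 1 with a filter at the 60th percentile, 3 with array quality weights and 1 over probe sets with all 12 values. The count of lower interactions, 1, was 0 over probe sets of exactly 1 nuclear gene. With 1 array left out, higher calls ranged from 0 to 4 and lower calls from 1 to 13. Both highest counts came without wildtype replicate 3, the untreated wildtype array with the highest 25S control signal, where 9.58% of probe sets had an unadjusted p below 0.05. That share was 4.05% with the 25S control as a covariate. The replicate block gave 0 higher and 3 lower calls; same-numbered arrays correlated at −0.254 to 0.232 and 7 of 18 pairs lay over 0.1, so a pairing across all 4 groups is not shown. Between the 2 treated groups all 3 same-numbered pairs did (0.122 to 0.146), while different numbers gave −0.091 to −0.035. Between untreated and treated Zat12 same numbers gave 0.079 to 0.232 and different numbers −0.133 to 0.013. Between untreated Zat12 and treated wildtype these ranges were 0.016 to 0.124 and −0.098 to 0.042. Deviations were taken from each group's mean, so positive values at the same number push those at different numbers below 0. The lower values at different numbers are therefore not separate evidence. Every negative value at the same number involved untreated wildtype. These are hints from the data and not from the labels. For the H2O2 responses the alternatives were chosen after seeing the data. Of the 1259 rises and 1689 falls in wildtype, 608 and 863 were at probe sets of 1 gene. Such probe sets were 7300 of the 13578 tested, and their calls came from the same fit. The falls in wildtype became 820 with the 25S covariate and 772 at an adjusted p below 0.01. Of the 1114 rises and 1243 falls in Zat12, 533 and 614 were at those 7300 probe sets. The falls in Zat12 became 605 at 0.01. With 1 array left out, falls in wildtype ranged from 1077 (without wildtype+H2O2 replicate 1) to 1673, and falls in Zat12 from 825 (without Zat12 replicate 1) to 1519. Of 2376 values of named probe sets under the alternatives, 19 became calls and 42 uncalled ones changed sign. The cause of these changes was not tested.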
